A study of Mus musculus with 5 samples.

Results

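The genes described here are 9 receptors for extracellular nucleotides and the ectoenzyme gene Entpd1. They were taken by symbol from a table of 18044 genes of the mouse pelvis-kidney junction at E18.5, and all 10 were found: P2rx1, P2rx4, P2rx7, P2ry1, P2ry2, P2ry6, P2ry12, P2ry13, P2ry14 and Entpd1. The libraries came from wild-type C57BL/6 embryos with no transgene and no treatment. Junctions of all embryos were pooled and dispersed with collagenase, then stained with an antibody to HCN3, a hyperpolarization-activated cation channel, and divided by flow cytometry. Of the 5 libraries, 2 are labelled HCN3-positive, which the source label names pacemaker cells of the urinary tract, and 3 are labelled HCN3-negative, the other cells of the junction. Nothing states that the libraries of a group came from separate pools, so the p-values reflect spread among these 5 samples alone, and that spread may be technical.

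ATP and other nucleotides that leave cells act on receptors at the surface of their neighbours. P2X receptors are ATP-gated cation channels, and P2Y receptors are coupled to G proteins. Entpd1, also called CD39, is a membrane enzyme that removes phosphates from extracellular ATP and ADP. In the urinary tract ATP is released from stretched urothelium and excites smooth muscle and sensory nerves, while macrophages and microglia use several of the same receptors to sense damaged cells.

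The labels and the deposited table divide the libraries differently, which bears on every value below. Reads assigned to genes numbered from 24588864 to 39034478 per library, and expression is given as normalized read counts, that is, reads over a size factor for each library. The transcript of the sorted protein, Hcn3, had normalized counts of 0 and 44.5 under the HCN3-positive label (replicates 1 and 2) and of 103, 32.2 and 41.9 under the HCN3-negative label (replicates 1 to 3), so the groups overlapped. The fold column of the authors' deposited table was matched, in 100% of 18047 rows and within a relative tolerance of 0.01, by a ratio of means that ignores the titles. Its denominator averages HCN3-positive 1 with HCN3-negative 2, the first set below. Its numerator averages HCN3-positive 2 with HCN3-negative 1 and HCN3-negative 3, the second set below. The table does not say which set is HCN3-positive. Hcn3 was at 0 and 32.2 in the first set and at 44.5, 103 and 41.9 in the second. It lay wholly lower in the first set, as did 26.1% of all genes tested. The log2 fold change, first set minus second set, was -3.35 (SE 1.52) and did not pass (adjusted limma p of 0.178). The sets would equal the labelled groups if the titles of HCN3-positive 2 and HCN3-negative 2 were exchanged, and whether a title or the deposited comparison is in error cannot be told from these files. Values by label hold only if the titles are right. The 2 comparisons use the same 5 libraries, and neither adds evidence to the other.

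The promoters of P2ry13 and P2ry12 are shown because these neighbouring genes had the widest difference between the sets, and that of P2ry1 because it had the narrowest. Each is the 250 bases before the start in the RefSeq table (build GRCm38.p6, which is mm10), printed 5′ to 3′ on the gene's own strand, with the ETS-type word GAGGAA in capitals on either strand. They lie at chr3:59210883-59211132 (minus strand), chr3:59262986-59263235 (minus strand) and chr3:61002535-61002784 (plus strand).
P2ry13: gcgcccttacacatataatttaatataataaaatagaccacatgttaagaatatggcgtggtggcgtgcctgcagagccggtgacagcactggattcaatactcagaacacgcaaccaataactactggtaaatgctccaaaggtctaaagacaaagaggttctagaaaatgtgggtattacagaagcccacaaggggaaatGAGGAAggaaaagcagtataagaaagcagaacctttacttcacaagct
P2ry12: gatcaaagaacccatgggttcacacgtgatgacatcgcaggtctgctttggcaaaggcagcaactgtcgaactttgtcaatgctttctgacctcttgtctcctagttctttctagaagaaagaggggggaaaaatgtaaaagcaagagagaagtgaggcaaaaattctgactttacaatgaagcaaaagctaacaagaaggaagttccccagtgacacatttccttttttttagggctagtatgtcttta
P2ry1: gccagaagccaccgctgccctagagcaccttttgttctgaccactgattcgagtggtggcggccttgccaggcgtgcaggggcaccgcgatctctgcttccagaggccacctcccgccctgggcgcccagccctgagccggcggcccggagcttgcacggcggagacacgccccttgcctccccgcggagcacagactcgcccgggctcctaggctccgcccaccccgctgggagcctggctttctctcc
The P2ry13 window held the word once, 48 bases before the start, and the other 2 windows did not hold it. G and C made up 41.6% of the bases in both the P2ry13 and the P2ry12 window and 70.8% in the P2ry1 window, against a median of 52.4% over 32851 promoter windows. CG pairs numbered 5, 3 and 20 in the same order. The table held 15 windows for 9 of the 10 genes. The word GAGGAA stood in 6 of the 15 windows, which belong to P2ry13, P2ry14 and Entpd1 and in part overlap, and in 23.3% of all windows of that length. The word TATAAA, searched on both strands and counted whether or not it overlapped GAGGAA, stood in 1 window of P2ry14 and in 12.4% of all windows. A match of letters is a description and not a binding site.

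By label, none of the 10 genes separated the HCN3-positive from the HCN3-negative libraries. In limma, 0 of the 10 passed at an adjusted p of 0.05 in either direction, where 0% of 16579 genes tested passed as higher and 0% as lower. At an unadjusted p under 0.05 limma gave 0.947% of all genes and none of these 10. On the recovered reads edgeR called 0 genes and DESeq2 called 10 (0.0613% of those it tested), with 0 of these 10 genes in either. DESeq2 gave no adjusted p by label for P2ry6, P2ry12 and P2ry13, so it made no call for them. For all 10 genes the labelled groups overlapped, whereas over all genes 5.34% lay wholly higher and 5.44% wholly lower in the libraries labelled HCN3-positive. Log2 fold changes, labelled positive minus labelled negative, ran from -0.44 (SE 0.84) for Entpd1 to 1.11 (SE 1.16) for P2ry14. The standard errors of P2ry12 and P2ry13 were 4.11 and 4.92, because each labelled group held a library high in the gene beside at least 1 near 0. Differences by label of moderate size were therefore not detectable for these receptors.

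Between the sets of the deposited table, 9 of the 10 genes were higher in both libraries of the first set than in any library of the second set, and P2ry1 overlapped. Over all genes 23.5% lay wholly higher in the first set and 26.1% wholly lower. In limma 7 of the 10 passed as higher and 0 as lower, where 10.6% of all genes tested passed as higher and 9.88% as lower. Of the 7, P2ry13 reached the filter on the mean only through the first set, so the count is a description. The median log2 fold change, first set minus second set, was 2.29 over the 10 genes and -0.07 over all genes tested. By the adjusted p of the authors' deposited table, 7 of the 10 passed as higher in the first set, where 8.10% of 18044 genes did, and 0 as lower, where 6.09% did. The calls differed in 2 genes, P2ry14 passing only in limma and P2rx1 only in the deposited table. Without the library labelled HCN3-positive 1, limma called 4 of the 10: P2rx7, P2ry6, P2ry12 and P2ry13.

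**Figure D1:**
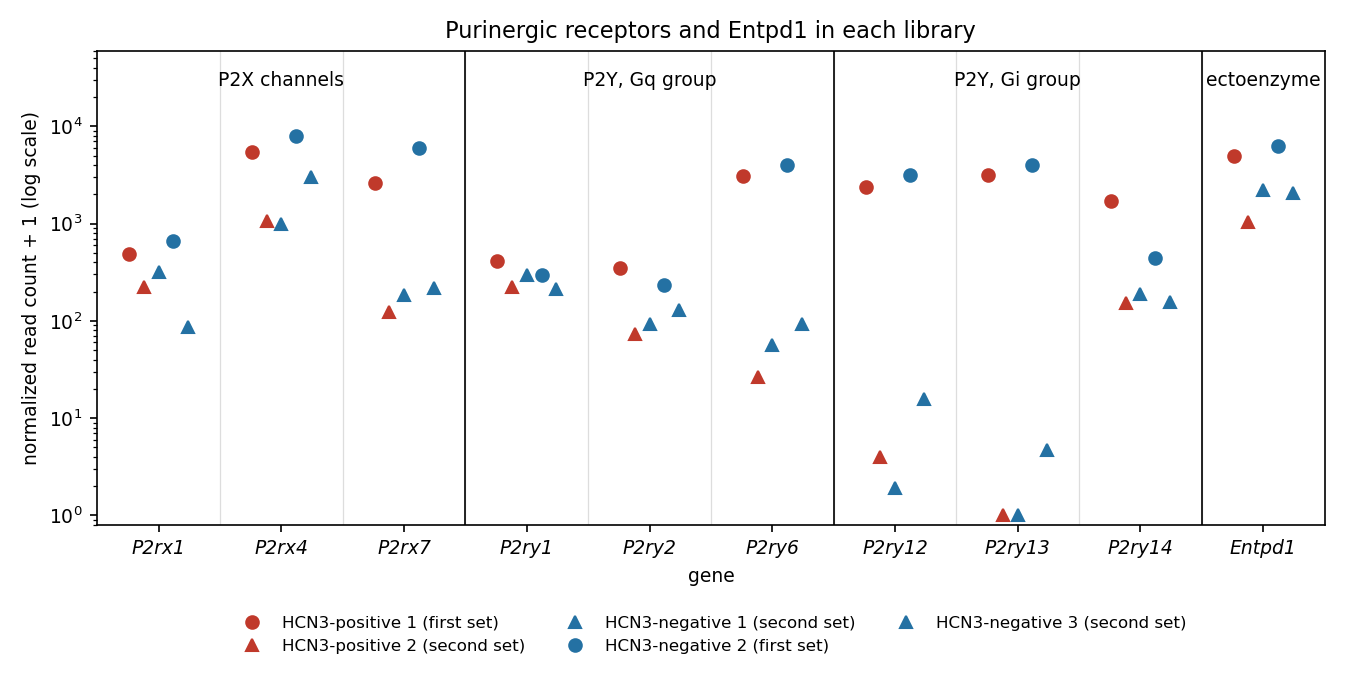
The vertical axis (log scale) gives the normalized count + 1 and the horizontal axis the genes, with every library plotted. Points are single libraries, red for labelled HCN3-positive and blue for labelled HCN3-negative, circles for the first set and triangles for the second. The circles of P2ry13 stand at 3127 and 4029 and its triangles at 0, 0 and 3.72 before 1 is added, while the points of P2ry1 lie between 211 and 410.2.

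Among the P2X channels, P2rx7 differed most between the sets. P2rx7 (chromosome 5, 122643911 to 122691432, plus strand, mm10) encodes a channel that opens at high ATP and triggers release of interleukin-1 beta from macrophages. In the first set it stood at 2616 normalized counts in HCN3-positive 1 and 5983 in HCN3-negative 2. In the second set it stood at 122 in HCN3-positive 2, 184 in HCN3-negative 1 and 219 in HCN3-negative 3, and this order of libraries is kept below. Both libraries of the first set were high, and the library labelled HCN3-negative 2 was 2.29 times the other. The means were 4300 ± 2381 (SD, n = 2) and 175 ± 49.2 (SD, n = 3), a ratio of 24.6. On the log2 scale the difference was 4.53 (SE 0.46; adjusted limma p of 0.00135). A microRNA gene, Mir8115, lies in an exon of P2rx7, so reads there are uncertain.

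P2rx4 (chromosome 5, 122707544 to 122729738, plus strand) lies 16.1 kb from P2rx7 in the same orientation and encodes a channel of lysosomes and the cell surface found in macrophages, endothelium and epithelia. It stood at 5505 and 8047 in the first set and 1065, 984 and 3015 in the second. The library labelled HCN3-negative 3 stood between the others, at 3.06 times the lowest library of its set. P2rx4 passed as higher in limma, by 2.18 on the log2 scale (SE 0.50) at an adjusted p of 0.0234. The call was lost when any library but HCN3-negative 3 was left out, with adjusted limma p from 0.0819 to 0.143. The endothelial marker list, 10 of 10 genes measured, had summed levels of 35463, 57367 and 133190 in the second set and 8126 and 9498 in the first. Its part in the level of P2rx4 was not tested.

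P2rx1 (chromosome 11, 72999103 to 73015200, plus strand), the ATP channel of smooth muscle contraction and of platelets, was at 483 and 657 in the first set and at 220.3, 316 and 84.6 in the second. The sets did not overlap, but the log2 fold change of 1.63 (SE 0.62) missed the threshold, with an adjusted limma p of 0.118. The authors' deposited table gives an adjusted p of 0.0493. DESeq2 on the recovered reads gave 0.0752, so the gene did not pass there. Summed smooth muscle markers, 10 of 10 measured, were 97929, 134383 and 24918 in the second set and 6546 and 4545 in the first. Within the second set the library lowest in smooth muscle markers was also the lowest in P2rx1, and the highest was the highest. Across the sets the 2 ran the other way, since the first set had the higher P2rx1 and the lower muscle markers. Smooth muscle's part in the level of P2rx1 was not tested.

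Of the P2Y receptors coupled to Gq, which raise intracellular calcium, P2ry6 separated the sets and P2ry1 did not. P2ry6 (chromosome 7, 100937630 to 100974649, minus strand), a receptor for UDP that stimulates phagocytosis in microglia, was at 3056 and 3977 in the first set and at 25.2, 56.1 and 92.1 in the second. Every library of the second set had reads of the gene, from 34 to 99. The means were 3516 ± 651 (SD, n = 2) and 57.8 ± 33.5 (SD, n = 3), a ratio of 60.8. Limma gave a log2 fold change of 6.07 (SE 0.60) and an adjusted p of 0.00127.

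P2ry2 (chromosome 7, 100996568 to 101012866, minus strand), a receptor for ATP and UTP found in many epithelia, lies 21.9 kb from P2ry6. It was at 349.6 and 235 in the first set and at 72.0, 92.7 and 128 in the second. The sets did not overlap, and the library labelled HCN3-positive 1 was the highest. The log2 fold change of 1.58 (SE 0.55) missed the threshold in limma, with an adjusted p of 0.0904, and the authors' deposited table gives 0.127. DESeq2 on the recovered reads gave an adjusted p of 0.0126. P2ry2 and P2ry6 thus had log2 fold changes of 1.58 and 6.07 although they are neighbours.

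P2ry1 (chromosome 3, 61002795 to 61008982, plus strand), an ADP receptor best known from platelets, was the most even of the 10 genes. It was at 410.2 and 294 in the first set and at 221, 296 and 211 in the second. The library labelled HCN3-negative 1 lay just above that labelled HCN3-negative 2, so the sets overlapped. Its log2 fold change of 0.53 (SE 0.43) did not pass, at an adjusted limma p of 0.441. An antisense gene, Gm37035, shares 992 of the 4291 exon bases of P2ry1, and the library chemistry is not stated to keep strand. Of 10 platelet and megakaryocyte markers measured, 4 had 0 reads in both libraries of the first set and 6 had reads in both. Their summed levels were 10549 and 22345 in the first set, nearly all of it Pf4, and 531, 641 and 641 in the second. In limma 1 of the list passed as higher in the first set, Pf4, which macrophages also express, at 10328 and 21971 against 31.9, 56.1 and 73.5. Another 1 passed as lower, Gp1bb, at 0 and 0 against 28.2, 61.5 and 10.2. The part of platelet RNA in the level of P2ry1 was not tested.

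The receptors coupled to Gi, which lower cyclic AMP, held the widest differences. P2ry12, P2ry13 and P2ry14 lie in a row on the minus strand of chromosome 3, inside the span of Med12l on the opposite strand. P2ry13 (59207892 to 59210882), an ADP receptor of myeloid cells, was at 3127 and 4029 in the first set and at 0, 0 and 3.72 in the second. The last value stands for 4 reads, and 0 reads allow up to 2.23 in HCN3-positive 2 and 2.67 in HCN3-negative 1 at a limit of 3 reads. Limma gave a log2 fold change of 11.05 (SE 0.97) and an adjusted p of 0.000902, and by fold change the gene ranked 13 of 16579. P2ry13 passed the filter on the mean only through the first set, and on the scale of log2(value + 1) its change is understated. Pooled over libraries its reads numbered 5848 and 4, a ratio of 3219 with an exact 95% interval from 1256 to 11817 that covers counting error only.

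P2ry12 (59216272 to 59262871), the ADP receptor that marks microglia and is the target of clopidogrel in platelets, lies 5.39 kb from P2ry13. It was at 2379 and 3142 in the first set and at 2.97, 0.891 and 14.9 in the second. The second set held 21 reads of it in all, 16 of them in the library labelled HCN3-negative 3. Its log2 fold change was 9.12 (SE 1.01) at an adjusted limma p of 0.00177. It shares 9 exon bases with Med12l, which was at 228 and 369.6 in the first set and at 134, 292 and 228 in the second, overlapping.

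P2ry14 (59113855 to 59153618), a receptor for UDP-glucose that is known from immune cells and from intercalated cells of the collecting duct, had another pattern. It was at 1699 and 443 in the first set and at 151, 188 and 153 in the second. The library labelled HCN3-positive 1 was 3.84 times that labelled HCN3-negative 2, and 14.2% of all genes tested had as wide a ratio within the first set, in either direction. For P2ry12, P2ry13 and P2ry6 the library labelled HCN3-negative 2 was instead the higher, at 1.32, 1.29 and 1.30 times the other. At 2.40 (SE 0.61) on the log2 scale P2ry14 passed in limma, adjusted p of 0.0339, and the authors' deposited table gives 0.235. Of the 5 fits that leave out 1 library, limma made the call only without that labelled HCN3-negative 2 (log2 fold change 3.37), and without that labelled HCN3-positive 1 the change was 1.43 with an adjusted limma p of 0.136. Leaving out the library labelled HCN3-positive 2, HCN3-negative 1 or HCN3-negative 3 gave adjusted limma p of 0.107, 0.0908 and 0.0762.

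Of 14 marker lists, 4 had their highest summed level, like P2ry14, in the library labelled HCN3-positive 1. For intercalated cells the summed levels, over 6 of 6 genes measured, were 17836 and 3990 in the first set and 1671, 1106 and 5631 in the second, and 5 of 6 had sets that did not overlap, higher in the first, where 23.5% of all genes tested did so. Foxi1, the master factor of these cells, was at 6047 and 1509 in the first set and at 627, 415 and 341 in the second. In the library labelled HCN3-negative 3 most of the sum was Slc4a1, at 4761, which red cells also express. Summed neutrophil markers, 7 of 8 measured, were 57386 and 7289 in the first set and 492, 800.1 and 1039 in the second. Summed collecting duct markers, 8 of 8 measured, were 59112 and 12341 in the first set and 11712, 8625 and 6239.9 in the second. Summed mast cell markers, 7 of 7 measured, were 8404 and 2373 in the first set and 2555, 2259 and 5063 in the second. Most of that sum was Kit in every library, so it says little of the other markers of the list. Sets also did not overlap, higher in the first, for 5 of 7 neutrophil and 4 of 8 collecting duct markers, and for 0 of 7 mast cell markers. No marker of these 4 lists was at 0 in both libraries of the first set, and the part of each cell type in the level of P2ry14 was not tested.

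**Figure D2:**
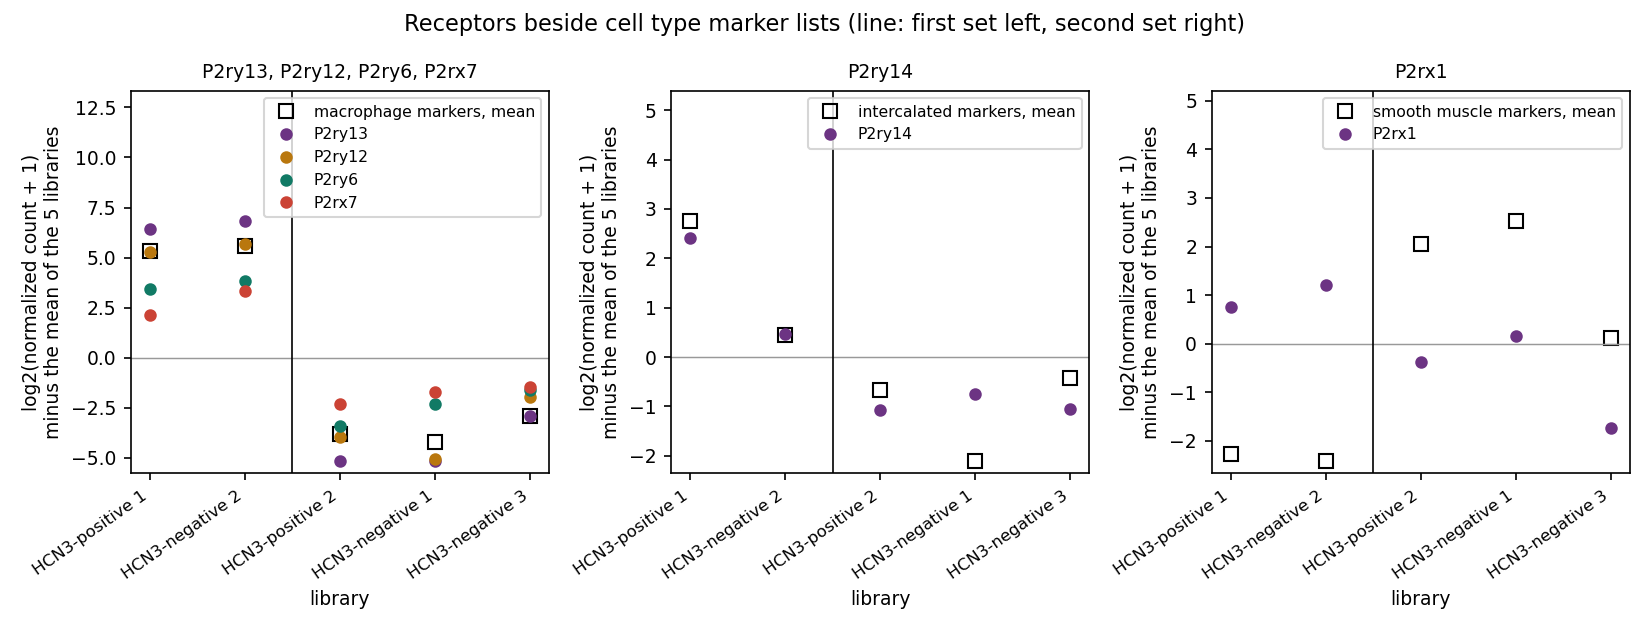
Log2(normalized count + 1) minus the mean of the 5 libraries (vertical axis) in each library (horizontal axis), for receptors (filled points) and the mean of a marker list (open squares). P2ry14 was highest in the library labelled HCN3-positive 1 (1699), as were the intercalated markers, while P2rx1 lay above its mean in the first set, where smooth muscle markers lay below theirs.

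Entpd1 (chromosome 19, 40612366 to 40741602, plus strand) was well expressed in all 5 libraries. It stood at 4931 and 6344 in the first set and 1046, 2217 and 2077 in the second. The library labelled HCN3-positive 2 was the lowest, and the other 2 libraries of its set were close to each other. The means were 5637 ± 999 (SD, n = 2) and 1780 ± 639 (SD, n = 3), a ratio of 3.17. In limma Entpd1 passed at an adjusted p of 0.0165, its log2 fold change being 1.73 (SE 0.35). The call was lost without the library labelled HCN3-positive 1 (adjusted limma p of 0.0867) and without that labelled HCN3-negative 2 (0.107).

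Macrophage markers moved with the genes that differed most. Of 14 measured, 13 passed as higher in the first set in limma, where 10.6% of all genes tested did. Of the 13, C1qa and Fcgr1 reached the filter on the mean only through the first set, so the count is a description. The summed levels of those 13, chosen by that test and given as a description, were 528377 and 618522 in the first set and 1405, 1134 and 2260.4 in the second. Csf1r, the macrophage growth factor receptor, was at 92160 and 139878 in the first set and at 422, 423 and 546 in the second. No marker of the list was at 0 in both libraries of the first set or in every library of the second. In these bulk samples fewer cells of a type and less RNA per cell cannot be told apart, and the part of macrophage RNA in the receptor levels was not tested.

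Levels were compared between genes only per kilobase of exon, and the order depended in part on the length used. In the first set the 4 lowest levels per kilobase belonged to P2rx1, P2ry1, P2ry2 and P2ry14, both with all annotated exon bases and with the median coding transcript. With all exon bases the highest was P2ry13, at 1415 ± 252 normalized counts per kilobase (SD, n = 2), followed by P2ry6 at 1218 ± 225, P2ry12 at 1084 ± 212, Entpd1 at 1010 ± 179 and P2rx4 at 965 ± 256, neighbours that differed by less than their spread. With the median coding transcript P2rx4 came first, at 4520 per kilobase, since its annotated exons span 7025 bases and its median coding transcript 1499. In the second set the order was firmer at its ends. By mean, Entpd1, at 319 ± 115 per kilobase of exon (SD, n = 3), and P2rx4, at 240.3 ± 164, took the top 2 places by either length. P2rx1 came next by mean, at 78.9 ± 44.3, but that place was not firm. In the library labelled HCN3-negative 3 it stood at 32.2, below P2ry1 at 49.2, P2rx7 at 36.6 and P2ry2 at 32.7. P2ry12 and P2ry13, at 2.45 ± 2.97 and 0.491 ± 0.850, took the last 2 places by either length.

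Other genes of the purinergic pathway divided in both directions between the sets. Of 43 listed genes 42 were in the table and 40 passed the filter on the mean. In limma 11 passed as higher and 2 as lower in the first set, where 10.6% and 9.88% of all genes tested did, and the median log2 fold change was -0.08. Of the 11, Casp1 and Nlrp3 reached the filter only through the first set, so that count is a description. By label 0 of the 40 passed. By the adjusted p of the authors' deposited table, 12 of the 42 passed as higher in the first set and 2 as lower, where 8.10% and 6.09% of all genes did.

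The remaining P2 receptors were sparse and none passed. P2rx3, a channel of sensory nerves, was at 0 and 1.11 in the first set and 7.42, 15.1 and 22.3 in the second. P2rx2, its partner in those nerves, was at 2.82 and 2.22 against 14.8, 82.9 and 11.2. Adjusted limma p was 0.0772 and 0.142. P2rx5 and P2rx6 overlapped between the sets, and P2ry4 did not reach the filter.

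Adenosine receptors, which act on the product of ATP breakdown, split. Adora3, a Gi-coupled receptor of mast cells and macrophages, was higher in the first set at 173 and 114 against 5.93, 6.24 and 10.2 (log2 fold change 4.10, SE 0.82, adjusted limma p of 0.0150). Adora2a, a Gs-coupled receptor that relaxes vessels, was lower at 25.4 and 119 against 334, 469.5 and 908 (log2 fold change -3.22, SE 0.78, adjusted limma p of 0.0290). Adora2b and Adora1 did not pass, with log2 fold changes of 1.36 (SE 0.48) and -0.36 (SE 0.47).

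Among 8 other enzymes that act on nucleotides or adenosine, 1 passed, and it was higher in the first set, a count near the 10.6% of all genes tested. Enpp1, which makes AMP and pyrophosphate from ATP, was at 813 and 1176 against 395, 342 and 305 (log2 fold change 1.498, SE 0.34, adjusted limma p of 0.0229). Enpp3 was lower, at 4.23 and 109 against 189, 611 and 835, without overlap. Its log2 fold change of -4.26 (SE 1.31) missed the threshold, with an adjusted limma p of 0.0638. The relatives of Entpd1 had log2 fold changes below 0 without passing. Entpd2 had a log2 fold change of -1.90 (SE 0.64), Entpd3 of -3.45 (SE 1.55) and Entpd8 of -2.95 (SE 2.08). Only Entpd2 had sets that did not overlap, at 114 and 43.3 against 229, 398 and 205. Entpd3 was at 1.41 and 82.1 against 54.2, 264 and 251. Entpd8 was at 0 and 256 against 136, 110 and 126, a ratio of means of 1.03, so its change rested on the library at 0. Nt5e, the CD73 enzyme that completes the path to adenosine, was at 1319 and 426 in the first set and at 1355, 1801 and 344 in the second, overlapping. Of the 4 Entpd genes listed here, Entpd1 alone passed in either direction.

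Of 7 tested genes for the release of ATP and the transport of nucleosides, Calhm2 passed as higher, at 1363 and 850.1 against 229, 155 and 299 (adjusted limma p of 0.0125). Slc17a9, the vesicular nucleotide transporter, was at 202 and 337 against 17.8, 50.8 and 106. It missed the threshold in limma (adjusted p of 0.0913), and the authors' deposited table gives 0.0175. Panx1, a large-pore channel that releases ATP, was at 651 and 969 against 1289, 1086 and 667, overlapping, with a log2 fold change of -0.30 (SE 0.37).

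The inflammasome genes that P2rx7 is known to engage passed as higher in the first set in limma in 6 of 6 cases, where 10.6% of all genes tested did. Casp1 and Nlrp3 reached the filter on the mean only through the first set, so this count is a description. Casp1, which cleaves interleukin-1 beta, was at 4556 and 2522 in the first set and at 3.71, 0 and 11.2 in the second. Il1b was at 1374 and 2870.0 against 8.16, 6.24 and 16.7, and the sensor Nlrp3 at 584 and 412 against 0.742, 0 and 13.95. Il18, another cytokine that caspase-1 matures, was at 2155 and 1378 against 11.9, 8.02 and 27.0. The adaptor Pycard, at 3452 and 2647 against 557, 507 and 319, had a log2 fold change of 2.75 (SE 0.33).

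Of 11 G protein and phospholipase C beta genes downstream of the P2Y receptors, Gna15 and Plcb2 passed as higher in limma and Gna11 as lower, counts near the shares of all genes tested (10.6% and 9.88%). Gna15, a Gq-class subunit of blood cells, was at 1895 and 2323 against 40.1, 162 and 55.8. Plcb2, a phospholipase of blood cells, was at 1986 and 1509 against 154, 258 and 187. Gna11, a widely expressed Gq-class subunit, was at 2230.0 and 1853 against 4496, 4501 and 4229. The widely expressed Gnaq and Gnai3 had log2 fold changes of 0.04 (SE 0.25) and 0.01 (SE 0.19).

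**Figure D3:**
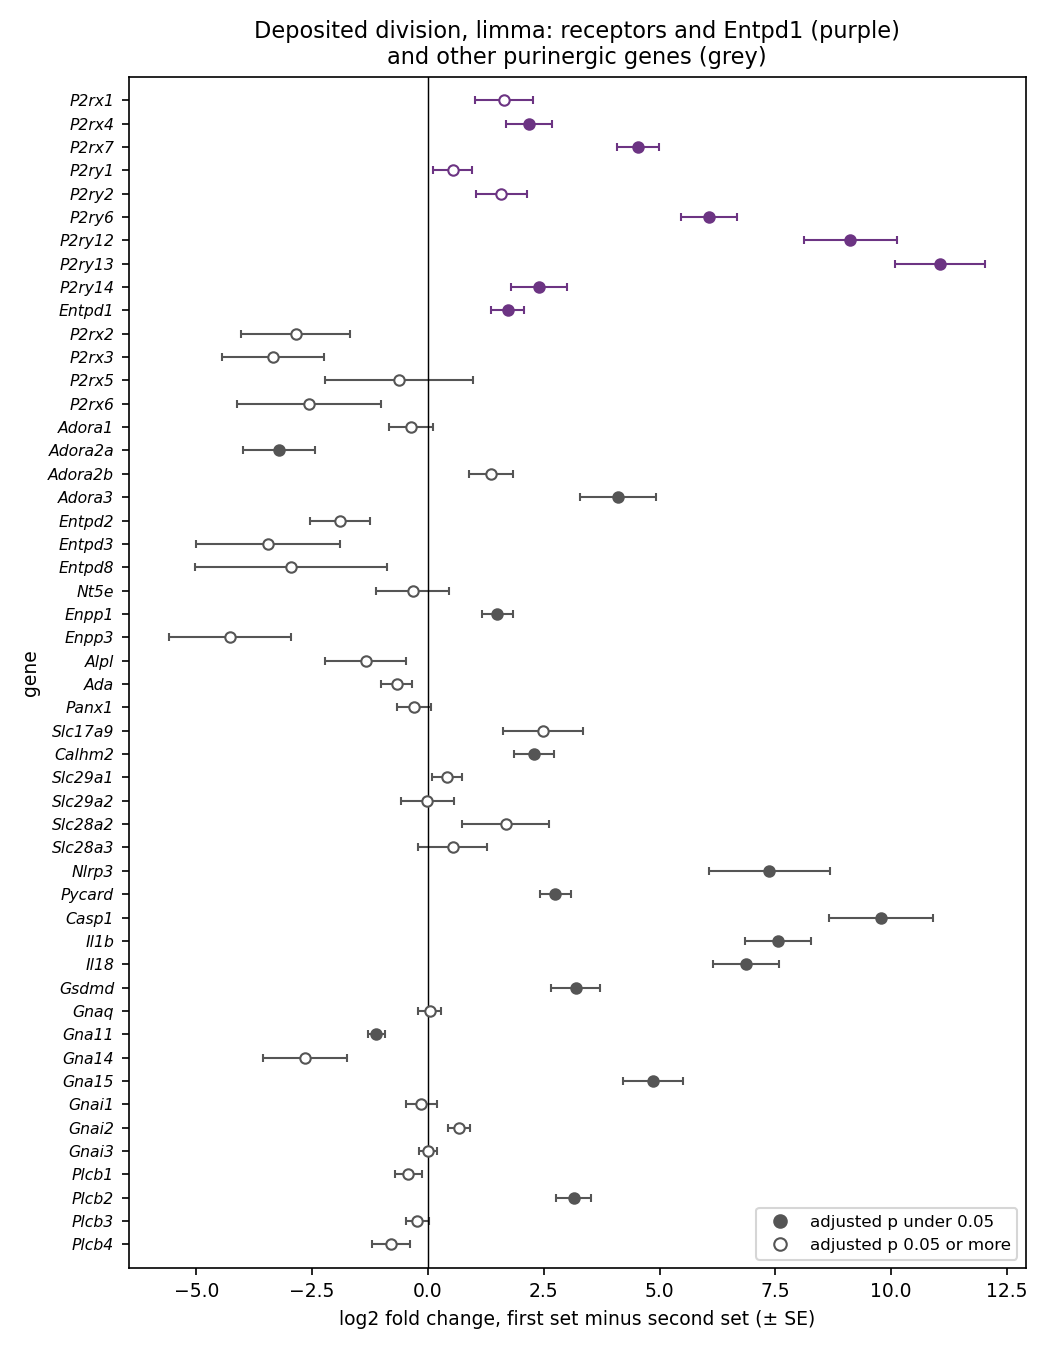
Log2 fold change, first set minus second set (horizontal axis, bars are the SE), from limma for each gene (vertical axis). Purple points are the receptors and Entpd1 and grey points the other purinergic genes, filled where the adjusted p was under 0.05. P2ry13 lies farthest to the right at 11.05, and Adora2a and Gna11 are the filled points left of 0.

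**Figure D4:**
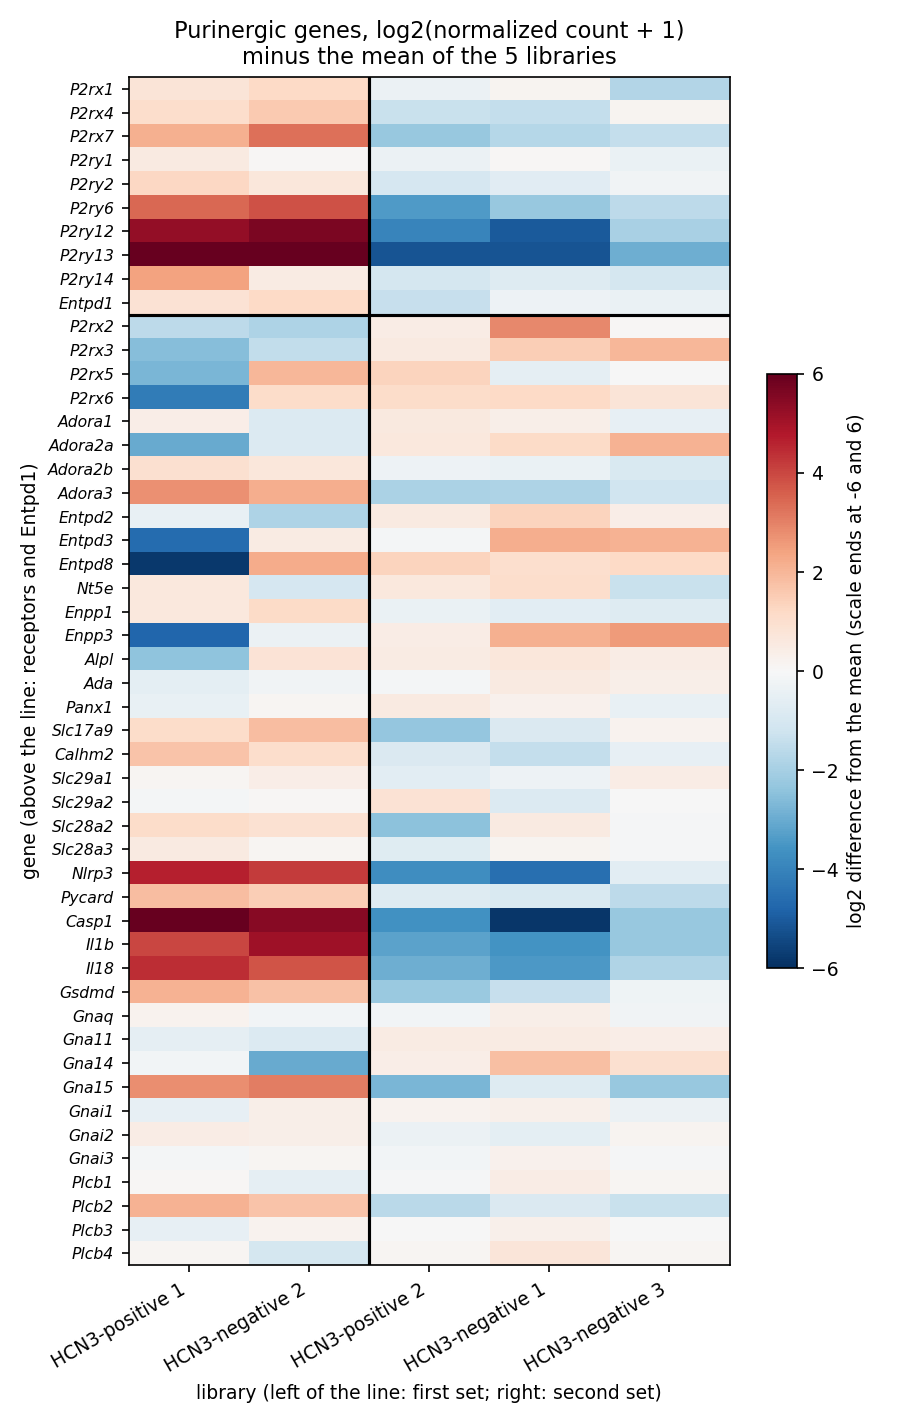
Log2(normalized count + 1) minus the mean of the 5 libraries, in colour, for each purinergic gene (rows) in each library (columns). Genes above that mean are red and those below it blue, and the first set stands left of the line. P2rx4 in the library labelled HCN3-negative 3 (3015) lies near its mean, unlike the other 2 libraries of the second set.

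The genes with the most similar profile were found by the root mean square difference of centred log2 values over the 5 libraries, among 13011 genes. For P2ry13 the nearest were Fcna, Mmp13 and Fcgr4, at 0.377, 0.405 and 0.454. For P2ry6 they were Ly9, Slfn2 and Plek, at 0.337, 0.378 and 0.392. P2rx4 had closer matches in Frmd4b and Slc18a1, at 0.0773 and 0.0831, both of which shared its middle level in the library labelled HCN3-negative 3 (3388 and 220.5). Entpd1 was nearest to Trim12a, Acp2 and Ddx58, at 0.116, 0.162 and 0.163. With 5 libraries many genes share a profile, and likeness says nothing of shared function.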

How the data were processed

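RNA from a Qiagen micro kit was made into libraries with Clontech cDNA conversion and Nextera XT, per the labels' protocols, which do not say that strand was kept. The submitters' processing notes name Trim Galore 0.40, TopHat2 2.0.11, HTSeq 0.6.1p2, DESeq 1.18.0 and mm10. In the sources used here, the annotation behind the counts was not given. Signal columns deposited by the authors are read counts divided by 1 size factor per library. Per the file headers, the table also holds means over libraries, a fold (ratio) between unnamed sets with its log2 and, from the authors, a p-value and its adjusted form.

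To recover reads, the smallest nonzero value of a library was taken as 1 read. At a tolerance of 0.01, 100% of nonzero values were then whole numbers. Summary rows were kept out. As shares of all rows' reads they were reads not aligned uniquely (13.5% to 18.7%), in no gene (8.58% to 14.03%) or ambiguous (0.792% to 2.32%). Libraries were grouped by title. The main test was limma 3.58.1 (trend, R 4.3.3) on log2(value + 1) over the 16579 genes whose mean reached 5, adjusted over all of them by Benjamini-Hochberg, at a threshold of 0.05. It was run by label and by the division found from the deposited fold. edgeR 4.0.16, DESeq2 1.42.0 and limma-voom on recovered reads were alternatives, and the fits were tested on simulated data. Spans and exon lengths are from GENCODE M21 (mm10), which may differ from the authors' annotation.

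The genes, lists and tests were chosen with earlier results of these data known. Named were all 10 genes, Hcn3, up to 4 genes per pathway list by p, and the 3 nearest profiles (mean of at least 50, without predicted or clone names) for the gene with the highest mean in each role. Further genes named for their values, chosen after these were seen, are Csf1r, Foxi1, Slc4a1, Kit, Pf4, Gp1bb, C1qa, Fcgr1, Mir8115, Gm37035, Med12l, P2ry4, Entpd8, Nt5e, Panx1, Nlrp3, Gnaq and Gnai3. Reads copied by PCR are not independent molecules, so the interval and the limits from 3 reads describe counting error alone. Every pair of libraries differed beyond sampling noise, with chi-square over its degrees of freedom from 103 to 780.5. Values of single marker genes that are withheld are not reported here.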

Additional observations from a re-analysis of the deposited data

How the results depend on the processing

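By label, 0 of the 10 genes passed under any alternative or with any library left out. Over all genes limma passed 0, also with each library left out (0 to 0), and DESeq2 passed 10. For P2ry6, P2ry12 and P2ry13 DESeq2 gave no adjusted p by label, so these genes had no call there. The direction by label was unstable. Leaving out 1 library moved the log2 fold change between -0.48 and 0.99 for P2rx1, -1.43 and 0.93 for P2rx4, -2.35 and 2.07 for P2rx7, -0.25 and 0.63 for P2ry1, and -0.96 and 1.30 for P2ry2. It moved it between -3.40 and 3.47 for P2ry6, -3.52 and 5.71 for P2ry12, -4.74 and 6.87 for P2ry13, -0.63 and 2.86 for P2ry14, and -1.56 and 0.68 for Entpd1. P2rx1 turned to -0.019 in edgeR and -0.0034 in DESeq2, and limma-voom turned P2ry2 to -0.014 and P2ry6 to -0.48. With the replicate number as a block, P2rx1 turned to -0.48, P2ry6 to -0.75 and P2ry13 to -0.18. In both comparisons the block gave the same log2 fold changes as leaving out HCN3-negative 3, the only replicate 3 library. These alternatives are therefore not separate estimates. The cause of the other changes of direction was not tested. In the deposited division all 10 log2 fold changes stayed above 0 under all 14 alternatives, and P2rx7, P2ry6, P2ry12 and P2ry13 passed in each. Leaving out 1 library gave 4 to 6 passing genes of the 10 and 1508 to 2901 of all genes, the lowest of both without HCN3-positive 1. All genes passing numbered 1892 without HCN3-positive 2 and 1787 without HCN3-negative 1, against 3396 with all libraries. Other settings gave 6 to 8 of the 10. P2ry14 missed the threshold in limma-voom (2.36, adjusted p of 0.0530) and P2ry2 passed in DESeq2 (1.58). In limma-voom 1750 genes passed as higher and 851 as lower, against 1758 and 1638. Libraries with the same replicate number did not deviate together from the means of their labelled groups (correlations of -0.53 and -0.69 over 16579 genes). The difference between the sets enters these deviations, so the correlations cannot tell whether the numbers pair the libraries. With the replicate block 6 of the 10 and 2827 of all genes passed in the division, P2ry14 missing the threshold (adjusted limma p of 0.0564). Depth limits the second set for P2ry12 and P2ry13, with 21 and 4 reads.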

Other observations

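The protein-coding neighbours of the receptor genes, chosen after the values were seen, did not share one direction between the sets of the deposited table. On both sides of P2ry1, which overlapped between the sets, lay genes that passed as higher in the first set in limma. Mbnl1, a splicing factor 373 kb away, was at 15482 and 14423 against 3265, 4608 and 3653 (log2 fold change 1.97, SE 0.20). Rap2b, a small GTPase 353 kb away, was at 2315 and 3207 against 688, 631 and 486 (log2 fold change 2.19, SE 0.28). Their adjusted limma p was 0.00134 and 0.00302. Beside P2ry6 and P2rx7 lay genes that passed as lower in the first set. Arhgef17, 5.52 kb from P2ry6, was at 932 and 528 against 2467, 3072 and 4579 (log2 fold change -2.22, SE 0.36, adjusted limma p of 0.00684). Ift81, a gene of ciliary transport 29.4 kb from P2rx7, was at 503 and 530.5 against 1254, 1581 and 987 (log2 fold change -1.27, SE 0.29, adjusted limma p of 0.0251). Camkk2, 1.43 kb from P2rx4, was at 2116 and 1108 against 1030, 749 and 497 (log2 fold change 1.07, SE 0.42), and did not pass (adjusted limma p of 0.123).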
